A study of Mus musculus with 12 samples.

Results

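Synaptic vesicle and transmitter release genes are described here in RNA-seq of mouse piriform cortex, the part of the cortex that the olfactory bulb chiefly feeds. The set holds 50 genes, found as the rows of the raw count table that carry their names, out of 48795 genes in all. The tested animals were 6 mice heterozygous for the Q140 knock-in allele, in which the mouse Htt gene carries an expanded CAG repeat and which serves as a model of Huntington's disease. They were compared with 6 wild types. Both genotypes had a C57BL/6 background, an age of 12 months and 3 females with 3 males. The allele sits in the germ line, so every cell type carries it beside 1 normal copy, and each library is 1 animal.

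A nerve terminal releases transmitter when a vesicle docks at the active zone, is primed there and fuses as calcium enters. Fusion is driven by SNARE proteins, which zip the vesicle to the plasma membrane. Munc13 and RIM proteins prime the vesicle, complexins and synaptotagmins hold and trigger the SNAREs, and large scaffolds such as Bassoon and Piccolo shape the site. These genes are expressed by neurons of many types, and several come as paralogs that differ between synapse types.

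Promoter sequence is shown for 7 members that the results return to. Bsn, Erc2, Unc13a and Sv2b were among the members lower in Q140 cortex, Erc1 and Sv2a are the relatives of Erc2 and Sv2b that did not pass the test, and Syn1 carries elements known from neuronal promoters. Each line is a window of 300 bases around a gene's start, from RefSeq on GRCm38.p6, read 5′ to 3′ along the gene. Capitals mark matches to the motifs named after the lines, on either strand, leaving out the E box and the CRE core.
Bsn: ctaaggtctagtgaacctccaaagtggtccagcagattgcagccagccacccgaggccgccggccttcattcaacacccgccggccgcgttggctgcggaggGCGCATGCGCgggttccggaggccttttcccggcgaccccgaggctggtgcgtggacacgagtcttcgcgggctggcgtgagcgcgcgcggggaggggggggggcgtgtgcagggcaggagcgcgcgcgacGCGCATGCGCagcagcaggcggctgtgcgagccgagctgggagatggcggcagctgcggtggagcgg
Erc2: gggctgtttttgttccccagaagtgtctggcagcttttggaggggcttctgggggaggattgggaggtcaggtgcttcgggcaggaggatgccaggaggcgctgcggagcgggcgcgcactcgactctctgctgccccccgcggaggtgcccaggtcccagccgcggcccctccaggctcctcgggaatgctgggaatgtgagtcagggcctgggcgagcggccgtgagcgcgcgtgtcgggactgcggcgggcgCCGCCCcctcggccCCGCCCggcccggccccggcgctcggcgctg
Unc13a: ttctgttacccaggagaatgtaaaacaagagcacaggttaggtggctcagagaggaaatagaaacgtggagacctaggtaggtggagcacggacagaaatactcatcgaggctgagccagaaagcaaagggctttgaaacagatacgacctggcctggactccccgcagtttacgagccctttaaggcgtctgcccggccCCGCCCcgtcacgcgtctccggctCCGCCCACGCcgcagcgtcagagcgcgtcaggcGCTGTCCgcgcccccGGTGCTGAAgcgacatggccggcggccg
Sv2b: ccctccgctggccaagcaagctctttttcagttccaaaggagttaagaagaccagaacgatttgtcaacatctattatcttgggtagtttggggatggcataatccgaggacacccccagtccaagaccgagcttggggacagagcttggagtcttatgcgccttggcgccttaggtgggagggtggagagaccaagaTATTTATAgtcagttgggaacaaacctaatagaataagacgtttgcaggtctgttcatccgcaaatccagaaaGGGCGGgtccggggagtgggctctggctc
Erc1: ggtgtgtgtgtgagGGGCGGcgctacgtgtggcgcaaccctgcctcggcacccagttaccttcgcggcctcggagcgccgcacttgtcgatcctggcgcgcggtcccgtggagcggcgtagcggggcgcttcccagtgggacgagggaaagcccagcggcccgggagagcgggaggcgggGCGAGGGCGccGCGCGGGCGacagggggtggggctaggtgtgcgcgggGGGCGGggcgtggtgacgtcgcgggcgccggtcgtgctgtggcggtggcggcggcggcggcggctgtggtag
Sv2a: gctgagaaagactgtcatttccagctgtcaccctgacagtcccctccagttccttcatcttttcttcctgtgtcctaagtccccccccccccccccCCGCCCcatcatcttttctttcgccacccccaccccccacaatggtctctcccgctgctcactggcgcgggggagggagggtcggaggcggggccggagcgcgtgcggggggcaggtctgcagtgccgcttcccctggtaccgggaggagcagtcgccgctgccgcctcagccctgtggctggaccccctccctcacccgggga
Syn1: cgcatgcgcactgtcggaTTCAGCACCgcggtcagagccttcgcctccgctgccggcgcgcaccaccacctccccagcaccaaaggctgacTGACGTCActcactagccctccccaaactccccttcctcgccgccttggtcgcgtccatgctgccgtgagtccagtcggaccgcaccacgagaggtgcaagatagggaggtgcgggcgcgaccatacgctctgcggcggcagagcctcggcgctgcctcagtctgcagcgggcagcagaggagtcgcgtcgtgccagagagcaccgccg

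The windows are chr9:108190334-108190633 (minus strand) for Bsn, chr14:27622157-27622456 (plus) for Erc2, chr8:71671708-71672007 (minus) for Unc13a, chr7:75309213-75309512 (minus) for Sv2b, chr6:119848101-119848400 (minus) for Erc1, chr3:96180977-96181276 (plus) for Sv2a and chrX:20920869-20921168 (minus) for Syn1. Positions count from the start base as 1, and the base before it is -1. Bsn had NRF1 sites (GCGCA, any base, GCGC) at -148 and -17. Erc2 had GC boxes (GGGCGG) at 6 and 20. Unc13a had GC boxes at -50 and -26, and an Egr site (GCGNGGGCG) at -25 that overlaps a GC box. It also matched each side of RE1, the element bound by REST, with the right side (GGACAGC) at 8 and the left side (TTCAGCACC) at 23. The sides were searched separately, so the spacing between them was not checked against that of a whole element. Sv2b had a Mef2 core (TATTTATA) at -52 that overlaps a TATA box (TATAAA) at -50, and a GC box at 22. Of the genes shown only Sv2b has further RefSeq windows. The first listed is shown, and the others held neither a Mef2 core nor a GC box. Erc1 had GC boxes at -236 and -22 with Egr sites at -70 and -59, and Sv2a had 1 GC box, at -154. Syn1 had the left side of RE1 at -232 and a CRE (TGACGTCA) at -159.

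RefSeq windows were matched for 37 of the 50 members. A gene with several windows was counted for a motif if any of them matched. Snap25, Vamp2, Rims2, Syt12, Doc2b, Syngr3, Syn3, Doc2a, Syt5, Syt17, Syt7, Syt4 and Syt13 had none. A GC box lay in 30 of the 37 members (81.1%), against 38.2% of 27025 genes with a window. NRF1 sites lay in 16.2% of members and 5.2% of all genes, and Egr sites in 18.9% and 6.3%. The left side of RE1 lay in 5.4% of members (Unc13a and Syn1) and 0.4% of all genes, and its right side in 10.8% and 7.6%. A TATA box was in 5.4% of members and 15.7% of all genes, a CRE in 5.4% and 2.0%, the CRE core (TGACG) in 29.7% and 23.0%, a Mef2 core in 2.7% and 2.0%, and an E box (CANNTG) in 81.1% and 75.0%. By the first listed window of each gene, members were richer in G and C, with medians of 62.7% and 19 CpG dinucleotides, against 52.7% and 7 over all genes. Among the matched members, a GC box lay in 10 of the 12 that were lower in Q140 cortex and in 20 of the 25 others. A match describes letters in a window, not a site in use.

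Of the 12 libraries, totals ranged from 19587208 to 35198602 counts, and no pair held identical values. Htt itself averaged 151 ± 8.19 CPM in Q140 and 196 ± 8.15 CPM in wild types (SD, n = 6 each), and its log2 fold change was -0.37 by edgeR (SE 0.0428, adjusted p = 0.000203). CPM values are counts scaled by library size after TMM, a correction for library composition. The Q140 libraries had TMM factors of 1.02 ± 0.0177, against 0.984 ± 0.0110 for the wild types, with no overlap (two-sided exact permutation p = 0.00216, the smallest that 6 against 6 allows). No neuronal, glial or vascular marker list had a member at 0 in all animals.

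All 50 members passed the expression filter. Their summed level was 2.02 ± 0.104% of the TMM-scaled library size in Q140 and 2.31 ± 0.115% in wild types (SD, n = 6 each). As TMM factors differed between genotypes, these values are not shares of the raw counts. The Q140 animals ranged from 1.88 to 2.15% and the wild types from 2.13 to 2.475%, so the ranges overlapped slightly. Levels per gene length, in the deposited FPKM values, covered a wide range: 13 members lay above 100 FPKM in wild types, 23 between 10 and 100 and 14 below 10. At the top stood Cplx2, at 425 ± 21.4 FPKM in Q140 and 465 ± 17.2 FPKM in wild types, and Snap25, at 361 ± 29.9 FPKM in Q140 and 445 ± 23.9 FPKM in wild types. The gap between these neighbours in wild types was smaller than the SD of Snap25. Vamp2, Cplx1 and Syp followed at 309.6 ± 15.6, 300.2 ± 31.3 and 289 ± 19.5 FPKM in wild types, with gaps smaller than their SD, and then Syt1 and Rab3a at 244 ± 13.8 and 241 ± 14.6. Syn3 was lowest, at 1.16 ± 0.154 FPKM in Q140 and 1.23 ± 0.106 FPKM in wild types.

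In Q140 cortex 16 of the 50 members were lower and 1 was higher at an adjusted p below 0.05, while 33 did not pass. Over all 17725 genes tested, 6.69% were lower and 4.50% were higher. The tests are edgeR's quasi-likelihood tests with sex as a covariate and Benjamini-Hochberg adjustment over all genes tested. The median log2 fold change was -0.15 over the members and 0.00446 over all genes, and 39 members had a negative value. In 10 members every Q140 animal lay below every wild type, which held for 2.70% of all genes, and in 0 every Q140 animal lay above, against 1.88%. Lower calls, but not higher ones, were more common among abundant genes. Of 2268 genes above 100 CPM, a bound chosen after the values were seen, 19.0% were lower and 3.57% higher. The median log2 fold change of these genes was -0.05. Of the 31 members above the bound 14 were lower and 0 higher, with a median of -0.17. Scaled by total counts alone, 12 members were lower and 1 higher, and the split over all genes became 4.64% lower and 9.16% higher. In bulk tissue, fewer cells of a type and less RNA per cell cannot be told apart.

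Most animal names open with a prefix that the labels leave unexplained, and the prefix went with genotype. RFckQ marked 1 Q140 animal and 4 wild types, RFQ 3 Q140 animals and 1 wild type, FMQ 1 wild type, and 2 Q140 animals had none. With the prefix as a covariate 0 members passed by edgeR, against 0.57% of all genes lower and 0.186% higher. At an unadjusted p below 0.05 by edgeR, 12 members were lower and 1 was higher in that fit. The share over all genes at that cut was not counted, so these counts cannot be set against it. The leading members had log2 fold changes of -0.58 for Unc13b (adjusted p = 0.062), -0.41 for Bsn (adjusted p = 0.0656) and -0.38 for Erc2 (adjusted p = 0.0829). Over all 28 alternatives their adjusted p-values ran from 5.9e-09 to 0.458, from 4.81e-11 to 0.619 and from 2.89e-09 to 0.634, with the highest in the 5 animals that share a name number. Within a prefix 1 genotype had a single animal, so the values within prefixes have no test. They were not adjusted for sex either. The RFckQ Q140 animal was a female set against wild types of both sexes, while all RFQ animals were male. Within RFckQ the log2 Q140 to wild type ratio had a median of -0.0979 over all 50 members, 39 of them negative, against 0.00455 over all genes. The Q140 animal lay below all 4 wild types in 23 members, against 26.5% of all genes. Within RFQ the median over the 50 members was -0.0458, with 27 negative, against -0.00194 over all genes, and every Q140 animal lay below the wild type in 17 members, against 27.7% of all genes. The 16 lower members, chosen on these same animals, had medians of -0.26 within RFckQ and -0.22 within RFQ.

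**Figure D1:**
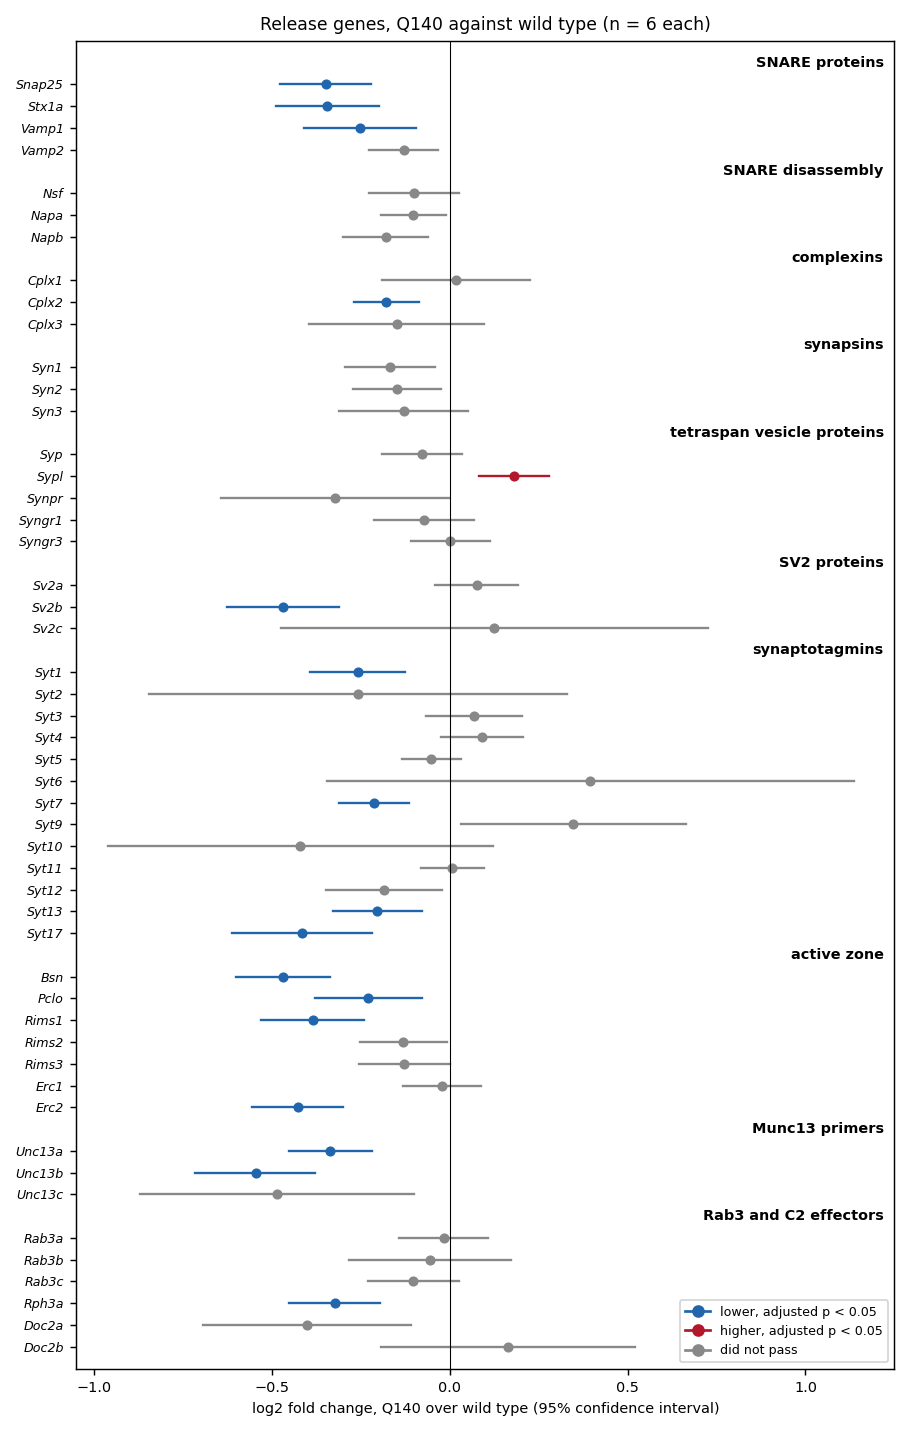
Log2 fold change of each of the 50 members, Q140 over wild type, by role, with 95% confidence intervals (n = 6 each). Blue marks the 16 members lower and red the 1 member higher at an adjusted p below 0.05. All 7 active zone members and all 3 Munc13 primers lie left of 0, while the SV2 proteins, complexins and synaptotagmins fall on both sides.

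The SNARE proteins themselves were lower in 3 of 4 cases. Snap25, the plasma membrane SNARE that gives 2 helices to the complex, had a lowest, median and highest level of 2152, 2394 and 2729.95 CPM in Q140, against 2886, 3053 and 3319 CPM in wild types. Every Q140 animal lay below every wild type. Its log2 fold change was -0.35 (SE 0.0595, adjusted p = 0.00255). Stx1a, the syntaxin that partners Snap25, had 197.6, 222 and 254.2 CPM in Q140, against 254.4, 279.7 and 321 CPM in wild types. The genotypes came within 1 CPM of each other without overlapping, and the log2 fold change was -0.34 (SE 0.0679, adjusted p = 0.00594). Vamp1, a vesicle SNARE, averaged 76.5 ± 9.36 CPM in Q140 and 91.1 ± 7.35 CPM in wild types, with overlap, and had a log2 fold change of -0.25 (adjusted p = 0.0406). Its relative Vamp2, the main vesicle SNARE of the forebrain and the more abundant in FPKM (309.6 against 8.81 in wild types), did not pass, at 1096 ± 43.3 CPM in Q140 and 1200.2 ± 70.5 CPM in wild types (log2 fold change -0.13, adjusted p = 0.0837). The call for Vamp1 held without Q140 replicate 4 (adjusted p = 0.0047), wild type 4 (0.0397) or wild type 6 (0.0235), and was lost without any other animal, with adjusted p-values of 0.0571 to 0.0994.

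The machinery that pulls spent SNARE complexes apart did not pass. Nsf, the ATPase that does this, had a log2 fold change of -0.10, as did its adaptor Napa. The neuronal adaptor Napb had -0.18 and came closest, at an adjusted p of 0.0525, with 661 ± 51.7 CPM in Q140 and 749 ± 40.0 CPM in wild types.

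Among the complexins, small proteins that bind the assembled SNAREs, Cplx2 was lower and Cplx1 was not. Cplx2 had a lowest, median and highest level of 1872, 2053 and 2243 CPM in Q140, against 2165, 2336 and 2469.8 CPM in wild types. The ranges overlapped, though all 6 Q140 animals lay below the wild type mean, and the log2 fold change was -0.18 (SE 0.0427, adjusted p = 0.017). Cplx1 averaged 677 ± 105 CPM in Q140 and 668 ± 67.0 CPM in wild types, with a 95% interval of the log2 fold change from -0.19 to 0.23. Cplx3, known from the retina and a few cortical neurons, was scarce in both genotypes, at 5.44 ± 0.629 CPM in Q140 and 6.01 ± 1.03 CPM in wild types.

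The 3 synapsins, which tether vesicles in the reserve pool, had negative values and none passed over both sexes. Log2 fold changes were -0.17 for Syn1, -0.15 for Syn2 and -0.13 for Syn3, with adjusted p-values of 0.085, 0.114 and 0.356. None of the tetraspan proteins, which span the vesicle membrane, was called lower. Synaptophysin (Syp), the classic vesicle marker, averaged 1451 ± 76.1 CPM in Q140 and 1533 ± 112 CPM in wild types (log2 fold change -0.08, adjusted p = 0.365). Syngr1 and Syngr3 had log2 fold changes of -0.07 and 0.0016, and Synpr -0.32 with a wide interval, from -0.64 to -0.003 (adjusted p = 0.183).

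Sypl, a synaptophysin relative that is also found outside neurons, was the 1 member to rise. It had a lowest, median and highest level of 45.8, 49.0 and 50.5 CPM in Q140, against 39.9, 41.4 and 48.1 CPM in wild types. The ranges overlapped, and all 6 Q140 animals lay above the wild type mean. The log2 fold change was 0.18 (SE 0.0453, adjusted p = 0.0216), and the call was lost without Q140 replicate 2 (adjusted p = 0.0568), wild type 1 (0.0566) or wild type 3 (0.0562).

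The SV2 proteins are vesicle glycoproteins with the fold of a transporter, and Sv2a is the target of the antiepileptic drug levetiracetam. Sv2b had a lowest, median and highest level of 409, 493 and 542 CPM in Q140, against 612, 674 and 703 CPM in wild types. The genotypes did not overlap, and the log2 fold change was -0.47 (SE 0.0733, adjusted p = 0.00148). Sv2a had 434, 492 and 523 CPM in Q140, against 419, 474 and 494 CPM in wild types, which overlapped (log2 fold change 0.08, adjusted p = 0.413). Sv2c, which is enriched in basal ganglia, ranged from 51.9 to 122 CPM in Q140 and from 30.7 to 116 CPM in wild types.

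**Figure D2:**
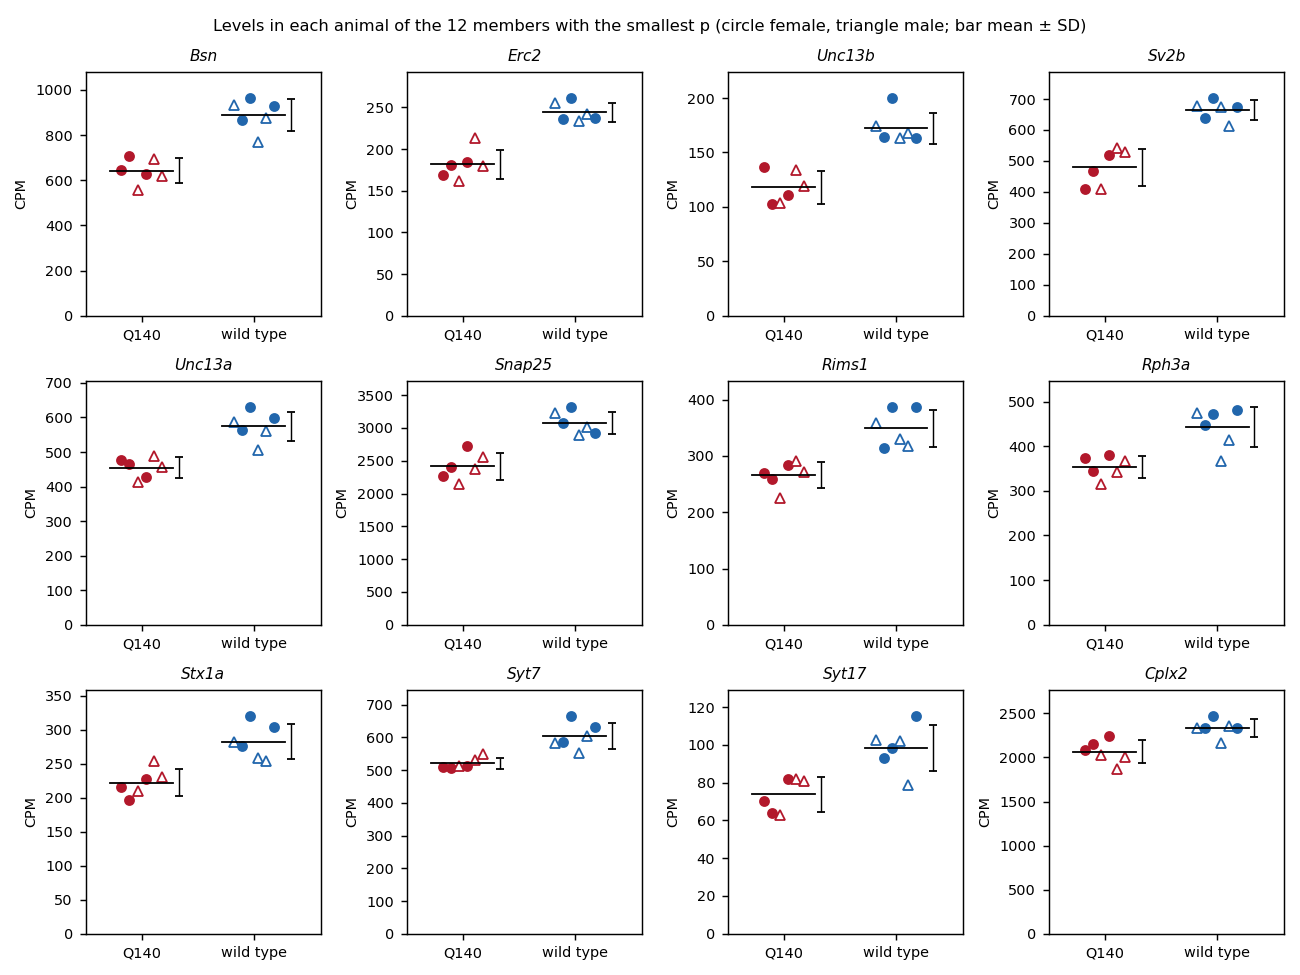
CPM of the 12 members with the smallest p in each animal, Q140 left and wild type right, with circles for females, triangles for males, a line at the mean and a bar of 1 SD. In Bsn, Erc2, Unc13b, Sv2b, Unc13a, Snap25, Rims1, Stx1a and Syt7 every Q140 animal lies below every wild type. The axes start at 0.

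Of the 13 synaptotagmins, calcium sensors and their relatives, 4 were lower and 9 did not pass. Syt1, the sensor of fast release, had a lowest, median and highest level of 1516, 1787 and 1912 CPM in Q140, against 1926, 2078 and 2194 CPM in wild types. The genotypes did not overlap (log2 fold change -0.26, SE 0.0624, adjusted p = 0.0177). Syt7, a slower, high affinity sensor that acts in facilitation, had 506, 513 and 548 CPM in Q140, against 551, 595 and 665 CPM in wild types, again with no overlap. Its log2 fold change was -0.21 (SE 0.0461, adjusted p = 0.0098). Syt17, which has no transmembrane segment, had 63.0, 75.7 and 82.0 CPM in Q140, against 78.8, 100.3 and 115 CPM in wild types, and overlapped through wild type 5 (log2 fold change -0.42, SE 0.0913, adjusted p = 0.0108). Syt13 averaged 213 ± 15.3 CPM in Q140 and 246 ± 19.3 CPM in wild types (log2 fold change -0.20, adjusted p = 0.0388) and kept its call without Q140 replicate 5 or 6 or wild type 4 or 5 (adjusted p = 0.0178 to 0.0351), but not without any of the other 8 animals (0.059 to 0.0959).

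The other synaptotagmins did not move together. Syt11, the highest of them in FPKM and one that does not bind calcium, averaged 157 ± 8.04 FPKM in Q140 and 151 ± 4.78 FPKM in wild types, with an interval of the log2 fold change from -0.08 to 0.10. Syt4, which sits on dense core vesicles, and Syt3 and Syt5 had log2 fold changes of 0.09, 0.07 and -0.05. Syt12 had -0.18 (adjusted p = 0.137). Syt9, another fast sensor, had 0.35 (adjusted p = 0.149), at 10.05 ± 1.19 CPM in Q140 and 7.94 ± 2.16 CPM in wild types.

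A few members varied between animals of 1 genotype more than between genotypes. The coefficient of variation was above 20% for 6 members in Q140 and 8 in wild types, against medians over the members of 8.90% and 7.82%. Syt6 was widest in wild types, at 55.1%, with 16.3 to 36.3 CPM in Q140 and 4.83 to 32.0 CPM in wild types, and Syt10 was widest in Q140, at 45.8%. Erc1 was narrowest, at 1.31% in wild types. Sv2c, Syt6 and Syt2 were all lowest in wild type 6, at 30.7, 4.83 and 14.8 CPM. That animal also had the lowest mean of striatal projection neuron markers, at -2.21 on a centred log2 scale, against -0.49 to 0.49 in Q140 and -0.40 to 0.95 in the other wild types. With the mean of that marker list as a covariate, Syt6 (log2 fold change 0.45, edgeR adjusted p = 0.000552) and Syt9 (0.42, edgeR adjusted p = 0.00874) were higher in Q140 beside Sypl. Over all alternatives the adjusted p of Syt6 ran to 0.781 and that of Syt9 to 0.72.

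**Figure D3:**
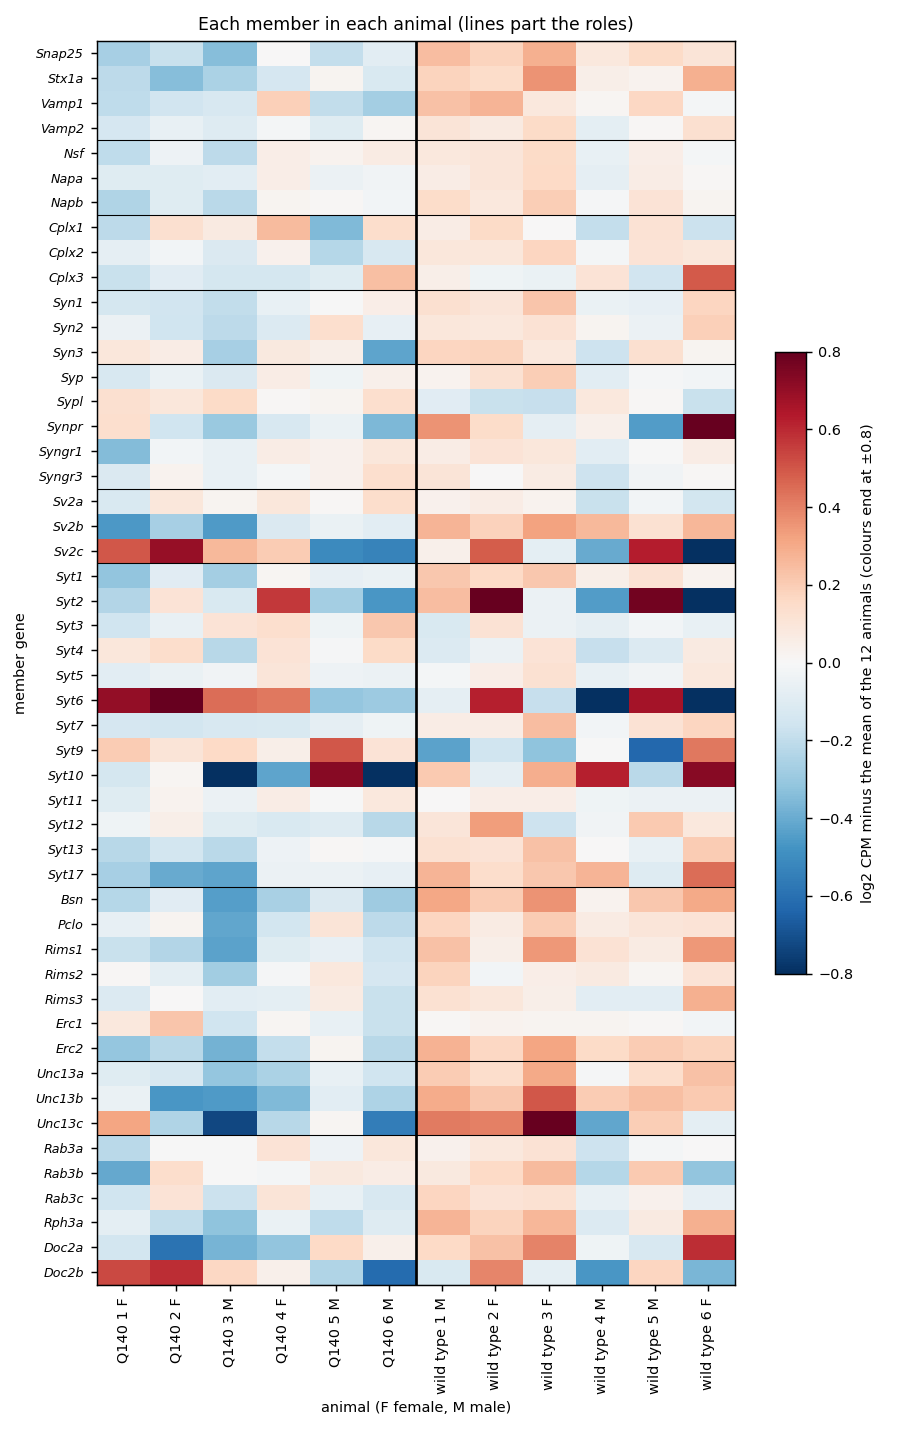
Log2 CPM of each member in each animal minus the mean of that member over the 12 animals, with Q140 animals left of the thick line and wild types right of it. Colours end at 0.8 either way, and F and M mark sex. Snap25, Sv2b, Bsn, Rims1, Erc2 and Unc13b are blue in most Q140 animals and red in the wild types, while Sv2c, Syt2, Syt6 and Syt10 differ from animal to animal in both genotypes.

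The active zone scaffold held 4 lower members of 7, and all 7 had negative log2 fold changes. Bsn (Bassoon, ENSMUSG00000032589, chromosome 9, 108096022 to 108190384, GRCm38) had the smallest p of the set. Its lowest, median and highest levels were 555, 637 and 708 CPM in Q140, against 768, 899.9 and 964 CPM in wild types. The genotypes lay apart in every animal, and the log2 fold change was -0.47 (SE 0.0615, adjusted p = 0.000472), a decrease of 27.8%. Pclo (Piccolo), its partner scaffold, had 279, 345 and 399.5 CPM in Q140, against 389, 399.5 and 427 CPM in wild types. These ranges overlapped, and the log2 fold change was -0.23 (SE 0.0700, adjusted p = 0.0493), a call kept without Q140 replicate 5 (adjusted p = 0.00583) and lost without any other animal (0.0587 to 0.111).

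RIM proteins tether calcium channels and prime vesicles. Rims1 had a lowest, median and highest level of 226, 271 and 290.5 CPM in Q140, against 314, 344 and 387 CPM in wild types. No animal of one genotype reached the range of the other (log2 fold change -0.39, SE 0.0675, adjusted p = 0.00293). Rims2 had 53.1, 62.5 and 68.3 CPM in Q140, against 63.5, 67.2 and 72.8 CPM in wild types (log2 fold change -0.13, adjusted p = 0.16), and the short form Rims3 had 68.7, 73.4 and 81.5 CPM in Q140, against 73.5, 81.6 and 94.9 CPM in wild types (log2 fold change -0.13, adjusted p = 0.185). Both overlapped and neither passed.

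The ELKS proteins Erc1 and Erc2 bind RIM and Bassoon, and the neuronal Erc2 differed where the broadly expressed Erc1 did not pass. Erc2 (ENSMUSG00000040640, chromosome 14, 27622428 to 28478537) had a lowest, median and highest level of 161, 180.3 and 214 CPM in Q140, against 233, 239.9 and 261 CPM in wild types. The ranges did not touch, and the log2 fold change was -0.43 (SE 0.0596, adjusted p = 0.000709). Erc1 had 62.4, 69.5 and 82.2 CPM in Q140, against 69.4, 71.4 and 72.0 CPM in wild types. Its log2 fold change was -0.02, with an interval from -0.13 to 0.09.

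Munc13 proteins open syntaxin for priming. Unc13b (ENSMUSG00000028456, chromosome 4, 43058953 to 43264871) had the most negative log2 fold change of the set, -0.55 (SE 0.0788, adjusted p = 0.000857). Its lowest, median and highest levels were 103, 115 and 137 CPM in Q140, against 163, 166 and 199.96 CPM in wild types, so every Q140 animal was below every wild type. Unc13a, the main Munc13 of forebrain glutamate synapses, had 412, 461 and 489 CPM in Q140, against 506, 575 and 630.1 CPM in wild types. It did not overlap either (log2 fold change -0.34, SE 0.0547, adjusted p = 0.00193). Unc13c, known best from cerebellum, varied widely and did not pass, at 66.8 ± 17.7 CPM in Q140 and 93.7 ± 29.1 CPM in wild types (log2 fold change -0.49, adjusted p = 0.09995).

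Rab3 proteins are the GTPases of the vesicle surface, and rabphilin and the Doc2 proteins bind calcium beside them. Rph3a (rabphilin) had a lowest, median and highest level of 315, 355 and 379.8 CPM in Q140, against 366, 459.9 and 481 CPM in wild types. The overlap came from wild type 4, at 366 CPM, and the log2 fold change was -0.32 (SE 0.0596, adjusted p = 0.00401). Rab3a, the abundant Rab of vesicles, averaged 539 ± 41.7 CPM in Q140 and 546 ± 35.9 CPM in wild types, with an interval of the log2 fold change from -0.14 to 0.11. Rab3b and Rab3c had log2 fold changes of -0.06 and -0.10. Doc2a had -0.40 (adjusted p = 0.0732) and Doc2b 0.16 (adjusted p = 0.574).

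Ratios of 2 related genes within 1 animal do not depend on how libraries are scaled, so 21 paralog pairs were compared. Of these 6 differed between genotypes by a two-sided exact permutation test with Benjamini-Hochberg adjustment over the 21 pairs (6 animals each). The test shuffled genotype over all animals without regard to sex or name prefix. Pairs were not tested with the prefix, the name number or oligodendrocyte markers taken into account. The log2 ratio of Sv2b to Sv2a counts was -0.03 ± 0.142 in Q140 and 0.52 ± 0.131 in wild types (adjusted exact permutation p = 0.0152). Sv2b therefore exceeded Sv2a in counts in all 6 wild types, where the ratio was 0.37 to 0.68, while in Q140 it ran from -0.23 to 0.18. Erc2 to Erc1 was 1.37 ± 0.20 in Q140 and 1.78 ± 0.0672 in wild types (adjusted exact permutation p = 0.0152). Within the RIM family the balance moved the other way for the relatives of Rims1: Rims2 to Rims1 was -2.11 ± 0.0593 in Q140 and -2.37 ± 0.110 in wild types (adjusted exact permutation p = 0.0152), and Rims3 to Rims1 was -1.84 ± 0.139 in Q140 and -2.10 ± 0.118 in wild types (adjusted exact permutation p = 0.0227).

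The remaining pairs that passed were of scaffolds and primers. Pclo to Bsn was -0.90 ± 0.0669 in Q140 and -1.13 ± 0.0789 in wild types, and Unc13b to Unc13a was -1.95 ± 0.131 in Q140 and -1.74 ± 0.0865 in wild types (both adjusted exact permutation p = 0.0227). Groups were apart in every animal for Sv2b to Sv2a, Rims2 to Rims1 and Erc2 to Erc1. The other 15 pairs did not pass, among them Cplx1 to Cplx2 (difference 0.19, adjusted exact permutation p = 0.17), Vamp1 to Vamp2 (-0.13, 0.322) and Syn2 to Syn1 (0.02, 0.802). Without wild type 3, or without wild type 4, 4 pairs passed, and Rims3 to Rims1 and Unc13b to Unc13a did not (adjusted exact permutation p = 0.053 for both in both cases). These ratios describe counts, which also carry gene length, so the sign of a ratio does not order the levels of the pair.

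**Figure D4:**
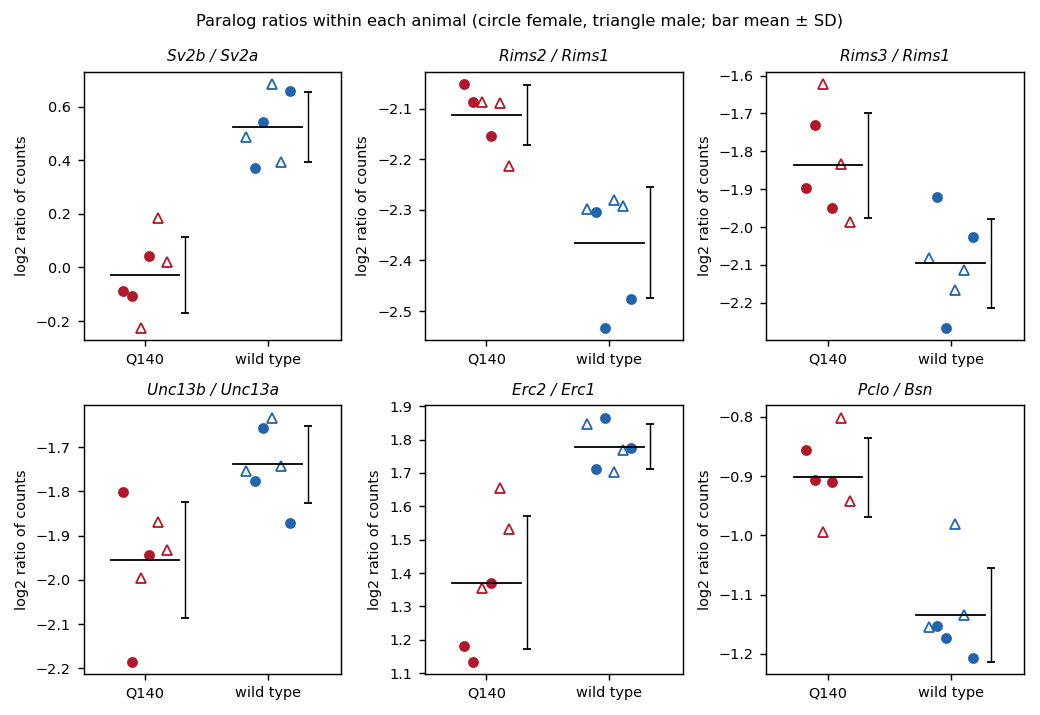
Log2 ratio of the counts of 2 paralogs in each animal for the 6 pairs that passed, Q140 left and wild type right, with circles for females, triangles for males, a line at the mean and a bar of 1 SD. Sv2b to Sv2a, Erc2 to Erc1 and Rims2 to Rims1 do not overlap between genotypes. Each panel has its own log2 axis, which does not start at 0.

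In females 14 members were lower and 1 was higher, against 4.21% and 2.83% of all genes, and in males 2 were lower and 0 higher, against 0.959% and 0.440%. These are contrasts with 3 animals of each genotype, by edgeR with a spread shared over all 4 groups. Name prefix went with sex too. Every Q140 male was RFQ, while Q140 females were RFckQ or had no prefix. Wild type males were RFckQ or RFQ, and wild type females RFckQ or FMQ. No comparison within or between sexes took the prefix into account, so sex and prefix cannot be told apart there. In males 17 members were lower and 1 higher at an unadjusted p below 0.05 by edgeR. Of all 17725 genes tested, 2940 were below it in either direction. The number of lower members in females was 8 without Q140 replicate 1 (2.37% of all genes lower) and 3 without Q140 replicate 2 (0.819%). It was 6 without wild type 3 (1.58%) and 9 without wild type 6 (2.46%). In males it was 0 without Q140 replicate 3 or 6 or wild type 1 or 5, where 0.179% to 0.353% of all genes were lower. It was 1 without Q140 replicate 2 (0.679%) or wild type 2 (0.908%), and 8 without Q140 replicate 5 (2.63%). Every Q140 female lay below every wild type female in 22 of 50 members, against 14.8% of all genes, and every Q140 male below every wild type male in 15 of 50, against 10.5%. Bsn and Erc2 passed in both sexes. Bsn had a log2 fold change of -0.48 in females and -0.46 in males, and Erc2 -0.46 and -0.39. Unc13b had -0.59 in females (adjusted p = 0.00988) and -0.50 in males (adjusted p = 0.0507), with an interval of the difference from -0.25 to 0.44.

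Members with the smallest p for a difference between the sexes were Doc2a, Erc1, Stx1a, Syt13 and Syn1. Doc2a had 31.9, 23.5 and 28.4 CPM in the Q140 females, against 41.6, 46.6 and 53.1 CPM in the wild type females. The females lay apart (log2 fold change -0.75, SE 0.141, edgeR adjusted p = 0.00895). Q140 males had 27.3, 39.4 and 36.4 CPM, against 39.4, 34.4 and 32.2 CPM in wild type males, which overlapped (log2 fold change -0.04). The effect in males minus that in females was 0.71 on the log2 scale (95% interval 0.28 to 1.15, edgeR adjusted p = 0.471). Stx1a had 216.5, 197.6 and 227 CPM in Q140 females, against 277, 321 and 304 CPM in wild type females, and 209.4, 254.2 and 230.1 CPM in Q140 males, against 282.5, 258 and 254.4 CPM in wild type males. Its log2 fold change was -0.49 in females and -0.20 in males.

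Syn1 passed in females alone, without a difference between sexes that passed. It had 559, 555 and 592 CPM in Q140 females, against 659, 720.5 and 696 CPM in wild type females (log2 fold change -0.28, edgeR adjusted p = 0.0362), and -0.05 in males. Syt13 had 196, 206 and 222 CPM in Q140 females, against 247, 269 and 263 CPM in wild type females (log2 fold change -0.32, edgeR adjusted p = 0.0214). Its value in males was -0.09. Sypl had 49.6, 48.4 and 45.8 CPM in Q140 females, against 40.2, 39.9 and 40.2 CPM in wild type females (log2 fold change 0.26, edgeR adjusted p = 0.0197), and 0.10 in males. Erc1 had 0.10 in females and -0.14 in males and passed in neither.

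No member passed the test of the difference of the Q140 effect between sexes, where 0% of all genes passed. At an unadjusted p below 0.05 by edgeR, 1 member had a more negative effect in males and 4 in females, among 1633 genes in all, and the smallest adjusted p of a member was 0.471. DESeq2 and limma voom also gave 0. Males against females, with genotype as a covariate, gave 0 members past the threshold, against 0.457% of all genes lower and 0.197% higher in males. At an unadjusted p below 0.05 by edgeR 5 members were lower in males and 1 was higher, among 2387 of the 17725 genes tested. The smallest adjusted p of a member was 0.232, for Syt4 (log2 fold change -0.16).

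**Figure D5:**
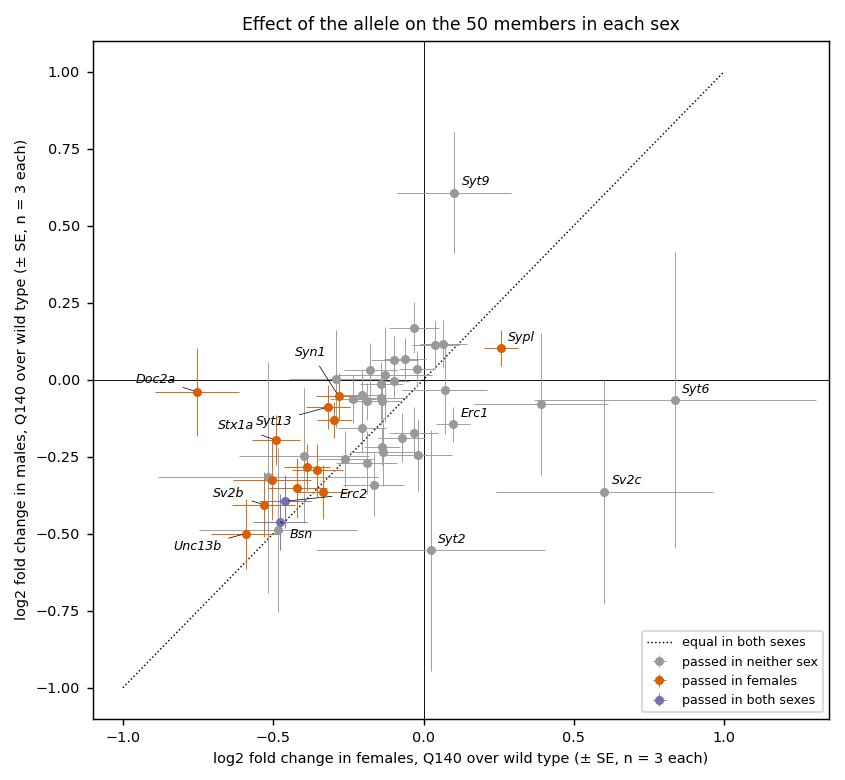
Log2 fold change of the 50 members, Q140 over wild type, in females (horizontal) and in males (vertical), with bars of 1 SE (n = 3 each). Bsn and Erc2, in purple, passed in both sexes, and the 13 members in orange passed in females. Doc2a lies far from the dotted line of equal effects, with a value close to 0 in males.

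Other genes of the same pathway were followed in lists. Of 111 tested genes in 6 further lists 13 were lower and 5 higher, with a median log2 fold change of -0.06, beside 6.69% lower and 4.50% higher over all genes. Among 27 genes of vesicle endocytosis 5 were lower, led by Amph (amphiphysin; 169 ± 10.6 CPM in Q140, 202 ± 12.9 CPM in wild types, log2 fold change -0.26), Pacsin1 (-0.20) and the endophilin Sh3gl2 (-0.26). Of 19 other SNAREs and regulators 3 were lower and 1 higher, with log2 fold changes of -0.21 for Stx3 and 0.20 for the broadly expressed Vamp3. Of 18 other vesicle proteins 2 were lower and 1 higher: Slc17a7, the vesicular glutamate transporter of cortical neurons, averaged 1438 ± 128 CPM in Q140 and 1823 ± 104 CPM in wild types (log2 fold change -0.34, edgeR adjusted p = 0.0033), Sncb had -0.21 and Syngr2 0.43.

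In the Rab3 cycle 2 of 12 were lower, the exchange factor Madd (-0.23) and Rab3d (-0.31). In the active zone and priming list 1 of 17 was lower, Lin7b (-0.27), and 2 were higher, Baiap3 (0.52), a Munc13 relative of dense core vesicles, and Tprgl (0.18), a presynaptic protein. Of 18 subunits and partners of the vesicle proton pump, which acidifies vesicles for filling, 0 were lower and 1 was higher, Atp6ap1 (0.12). The lists were chosen with earlier results known and carry no test of their own.

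Markers of cell types also differed. Of 12 excitatory neuron markers 4 were lower and 0 higher, and their summed level was 5072 to 5619 CPM in Q140 and 5980 to 8033 CPM in wild types, without overlap. A sum follows the most abundant markers. The mean over the list on a centred log2 scale, which weights markers equally, did overlap, at -0.25 to 0.05 in Q140 and -0.27 to 0.53 in wild types (two-sided exact permutation p = 0.0649). By the same test, without adjustment, the inhibitory neuron mean was lower in Q140 (exact permutation p = 0.0216). The oligodendrocyte and microglia means were higher (exact permutation p = 0.0346 and 0.0455). For the remaining lists the exact permutation p ran from 0.13 to 0.812. Of 15 inhibitory neuron markers 4 were lower and 0 higher, with sums of 1177 to 1397 CPM in Q140 and 1333 to 1552 CPM in wild types. Pan-neuronal markers gave 1 lower and 1 higher of 15, with sums of 6313 to 7009 CPM in Q140 and 6571 to 7445 CPM in wild types. Of 15 oligodendrocyte markers 0 were lower and 5 higher, with sums of 4298 to 6134 CPM in Q140 and 3775 to 5319 CPM in wild types. With the mean of the oligodendrocyte list as a covariate 6 members were lower by edgeR, namely Bsn, Erc2, Unc13b, Unc13a, Sv2b and Snap25, against 1.74% of all genes lower and 0.722% higher. The other 10 had log2 fold changes of the same sign in that fit, among them Cplx2 at -0.21 (edgeR adjusted p = 0.0554) and Rph3a at -0.27 (edgeR adjusted p = 0.0749). Sypl did not pass there (0.12, edgeR adjusted p = 0.296), and Syt9 was higher (0.61, edgeR adjusted p = 0.0471). Over all alternatives the adjusted p of Cplx2 ran to 0.823 and that of Rph3a to 0.731.

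Of 12 microglia markers 0 were lower and 2 higher, with sums of 485 to 599 CPM in Q140 and 446 to 547 CPM in wild types. Striatal projection neuron markers gave 1 lower of 13, with sums of 699.7 to 1280.0 CPM in Q140 and 489 to 2044 CPM in wild types. Astrocyte markers gave 1 lower of 12 and endothelial and mural markers 1 higher of 12, and none of 9 oligodendrocyte precursor, 12 meningeal fibroblast or 5 tested choroid plexus markers passed. No pan-neuronal, excitatory or inhibitory mean was used as a covariate. Beyond the covariate fits, the part of cell type shares in the members' values was not tested.

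By median the lower members were longer genes, with a span of 69.3 kb against 38.5 kb for the 33 that did not pass. Their median length implied by FPKM was 7709 against 4808 bases. The ranges overlapped widely, with spans of 12.57 to 856.1 kb against 3.895 to 489.5 kb, and the difference was not tested. With each library's trend over length taken out through offsets, 14 members were lower by edgeR, all 16 but Vamp1 and Pclo. No source used here gives the strand setting of the counting, and exons of 17 members overlap a gene on the opposite strand, 5 of them lower members: Unc13a (with Colgalt1), Sv2b, Syt7, Pclo and Erc2. Bsn shares exons with Gm47303 on its own strand. Reads of these genes and their partners may be mixed.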

How the data were processed

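RNA-seq counts of 12 piriform cortex libraries were analysed, 6 Q140 and 6 wild type, grouped by the genotype and sex labels. The labels give no replicate numbers, so animals are numbered within each genotype in the order of the samples. The authors deposited raw counts per gene, whole numbers that are not normalized, and an FPKM table made from the same counts. STAR 2.7.5c, SAMtools 1.10 and HTSeq 0.12.3 with GRCm38 and mm10 are named per the submitters' processing notes, and libraries were made with a stranded kit per the labels' protocols. No source used here gives the strand setting or the annotation release. Coordinates came from GENCODE on GRCm38, which matched 48435 of 48795 identifiers.

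The tests on counts used edgeR 4.0.16 under R 4.3.3 (TMM, default filter by genotype, 17725 genes, quasi-likelihood test with sex as a covariate, threshold 0.05), and contrasts within sexes came from a model of 4 groups. Paralog ratios and library properties were compared by two-sided exact permutation tests. Named members were chosen by rule: the 12 with the smallest p, any that passed within a sex, the paralogs of pairs that passed, and up to 3 genes of each pathway list. The values of 1 gene of a pathway list are not reported here. Members and lists were chosen with earlier results of these data known. Alternatives used DESeq2 1.42.0 and limma 3.58.1, other scalings, filters, covariates and each animal left out. Fits were tested on simulated counts.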

Additional observations from a re-analysis of the deposited data

Results flagged for a closer look

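Over the 50 members in 2 genotypes, 100 groups of 6 animals were examined for 1 animal far from the others, and 7 were found. The rule flags about 1 in 20 groups of independent, normally spread values. The members share the same animals, so whether 7 exceeds chance was not tested. Vamp1 was highest in Q140 replicate 4, at 94.91 CPM, against 68.69 to 75.96 CPM in the other Q140 animals, and Syt5 was highest in the same animal, at 170.3 CPM, against 150.5 to 156.4 CPM. Cplx3 was highest in Q140 replicate 6, at 6.705 CPM against 5.023 to 5.321 CPM, and in wild type 6, at 7.978 CPM against 5.093 to 6.111 CPM. Syt9 was highest in Q140 replicate 5, at 12.38 CPM against 9.088 to 10.1 CPM. Rab3b was lowest in Q140 replicate 1, at 96.04 CPM against 126.4 to 140.7 CPM. Unc13b was highest in wild type 3, at 199.96 CPM against 163.1 to 174.1 CPM, and it passed the genotype test without that animal too.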

How the results depend on the processing

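The 16 lower members kept a negative fold change in all 28 alternatives to the genotype comparison, and Sypl, the 1 higher member, a positive one. Of the members that did not pass, 13 changed sign in 1 or more alternatives, among them Cplx1 and Rab3a in 8 each, Syt6 (-0.25 to 0.78) and Sv2c (-0.46 to 0.32). The count of lower members was 12 to 20 under the other scalings, filters, tests and FPKM fits. Over all genes 3.98% to 8.29% were lower there. It was 13 to 20 when each animal was left out (4.08% to 8.03% of all genes) and 6 with the oligodendrocyte covariate (1.74%). It was 0 with the name prefix as covariate (0.57%). Among the 5 animals that share a name number, with that number as covariate, it was 0 (0%). In that last fit 9 were lower at an unadjusted p below 0.05, a cut at which all genes were not counted. Covariates of the meningeal and striatal lists gave 13 and 18, with 4% and 8.02% of all genes lower. Bsn, Erc2, Unc13b, Sv2b, Unc13a and Snap25 passed in 26 of 28. Vamp1 passed in 12, Syt13 in 13 and Pclo in 6. Among members that had not passed, Napb passed in 8, Doc2a in 6 and Unc13c in 5. The count of higher members was 2 by voom (5.99% of all genes higher) and 3 with the striatal covariate (5.4%). It was 0 with the meningeal (2.33%), prefix (0.186%) or number (0.00552%) covariate. When each animal was left out it was 0 to 2 (2.31% to 6.03%). In females, leaving out an animal gave 3 to 15 lower and 0 to 1 higher members, with 3 lower without Q140 replicate 2. Over all genes 0.819% to 4.73% were lower and 0.46% to 3.29% higher. In males, lower members numbered 1 unscaled (0.728% of all genes lower) and 1 with length offsets (0.762%). They numbered 9 with no filter (1.32%), 10 with DESeq2 (2.61%) and 10 with voom (2.96%). When an animal was left out they numbered 0 to 8 (0.179% to 2.63%). In males 1 was higher with no filter (0.565% of all genes higher) and 1 by voom (1.86%). The difference between sexes and the sex comparison gave 0 members under all alternatives run. Of paralog pairs 4 to 6 passed when each animal was left out. No paired analysis was possible for all 12 animals because a name number ties only 5 animals across genotypes. Each group of genotype and sex holds 3 animals, which limits the comparisons within sexes.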
